A study of Mus musculus with 8 samples.

Results

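Genes that restrain Wnt signalling were followed through the epithelium of the small intestinal crypt: 9 genes, chosen by symbol, of the 27998 gene rows in the count matrices. Of these, 5 are feedback inhibitors (Axin2, Nkd1, Notum, Rnf43 and Znrf3) and 4 encode core parts of the beta-catenin destruction complex (Axin1, Apc, Gsk3b and Csnk1a1). The rule names the genes and sets no limit on a measured value, but they were picked with earlier results of these data known. All 9 were found in the files. The measurement was single-cell RNA sequencing of EpCAM+ cells that flow cytometry had sorted from crypts of adult female mice. The KO mice were homozygous for a CRISPR deletion of ieCtnnb1, an intestinal enhancer upstream of the beta-catenin gene Ctnnb1. The controls, labelled WT, were described in the study as carriers of a reporter of that enhancer (LacZ and iCre, inserted in H11) rather than unmodified animals. The deletion was present in every cell of the KO animals and not in the epithelium alone. The labels list 4 samples per group, whereas each group came as 1 pooled matrix in which no barcode could be traced to an animal. No test between groups was therefore possible, and every interval below is an exact 95% interval that covers counting error only.

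In Wnt signalling, a destruction complex built on the scaffolds Axin and Apc lets the kinases casein kinase 1 alpha (Csnk1a1) and Gsk3b phosphorylate beta-catenin, which is then degraded. A Wnt ligand bound to its receptors stops this, and beta-catenin enters the nucleus and switches on target genes. Several targets act back on the pathway. Axin2 replenishes the scaffold, Rnf43 and Znrf3 are membrane ubiquitin ligases that remove Frizzled receptors from the surface, Nkd1 binds Dishevelled, and Notum is a secreted enzyme that takes the lipid off Wnt ligands. In the crypt, stem cells at the base depend on Wnt, which Paneth cells and the surrounding mesenchyme supply.

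Positions are on mouse build GRCm38 (GENCODE M21). Axin2 lies on chr11:108920349-108950783, Notum on chr11:120653788-120661175, Rnf43 on chr11:87662722-87735539 and Znrf3 on chr11:5276324-5444847. Nkd1 lies on chr8:88521354-88594884, Axin1 on chr17:26138688-26195811 and Gsk3b on chr16:38089001-38246084. Antisense genes overlap Axin2 (Gm11670) and Notum (Notumos and Myadml2os), a processed pseudogene on the other strand overlaps Axin1 and another overlaps Apc. Whether the counting used strand is not given in the sources used here, so reads of such partners may not be told apart. Genes on the same strand overlap Nkd1 (Gm45496), Rnf43 (1110028F11Rik) and Gsk3b (Gm25617), and strand would not separate their reads.

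Promoter sequence, from 250 bases before to 50 after an annotated start, was found in RefSeq (GRCm38.p6) for 4 of the 9 genes. One start each is shown for Axin2 and Rnf43, which had like patterns across cell types, for Nkd1, which had another, and for Gsk3b from the destruction complex. Capitals mark CTTTG, the core of the TCF/LEF motif through which beta-catenin acts, or its reverse complement CAAAG.
Axin2 (chr11:108920099-108920398, plus strand): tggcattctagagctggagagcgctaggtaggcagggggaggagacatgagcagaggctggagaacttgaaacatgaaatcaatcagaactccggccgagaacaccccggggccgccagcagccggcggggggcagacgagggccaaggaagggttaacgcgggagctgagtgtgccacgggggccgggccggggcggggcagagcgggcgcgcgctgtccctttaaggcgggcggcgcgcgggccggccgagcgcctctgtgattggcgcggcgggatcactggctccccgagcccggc
Rnf43 (chr11:87662837-87663136, plus strand): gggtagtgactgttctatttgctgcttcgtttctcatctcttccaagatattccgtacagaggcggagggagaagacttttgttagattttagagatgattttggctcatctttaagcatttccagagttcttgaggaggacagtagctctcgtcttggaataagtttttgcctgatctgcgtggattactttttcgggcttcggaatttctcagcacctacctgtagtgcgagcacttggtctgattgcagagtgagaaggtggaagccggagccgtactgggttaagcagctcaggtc
Nkd1 (chr8:88527383-88527682, plus strand): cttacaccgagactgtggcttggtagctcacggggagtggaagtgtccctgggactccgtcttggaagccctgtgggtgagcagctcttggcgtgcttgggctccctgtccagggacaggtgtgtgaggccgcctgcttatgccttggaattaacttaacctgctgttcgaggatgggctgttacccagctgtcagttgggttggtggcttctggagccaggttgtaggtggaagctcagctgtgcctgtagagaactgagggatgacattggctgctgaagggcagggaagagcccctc
Gsk3b (chr16:38088751-38089050, plus strand): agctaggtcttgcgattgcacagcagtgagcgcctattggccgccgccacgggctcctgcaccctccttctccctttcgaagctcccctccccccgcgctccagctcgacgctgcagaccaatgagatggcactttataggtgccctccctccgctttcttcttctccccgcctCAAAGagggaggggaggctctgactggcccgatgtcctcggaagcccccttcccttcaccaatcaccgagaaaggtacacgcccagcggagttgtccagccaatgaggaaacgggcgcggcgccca
The core was searched on both strands and stood in 53.9% of all 32851 promoters of this length. It was found in 1 of the 5 promoters used for these 4 genes, that of Gsk3b, on the minus strand and starting 76 bases before the start of transcription. No match says only that these letters are not in this window. The longer CTTTGAT, which contains the core, was in 3.73% of all promoters and in none of the 5. The Axin2 window was 70% G and C with 31 CpG, and the Nkd1 window 58.3% with 6 CpG, against medians of 52.7% and 7 over all promoters. The Nkd1 window lies wholly inside the gene interval given above, whereas that of Axin2 spans the start of its interval.

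The WT matrix held 134876816 UMIs (unique molecular identifiers, which count captured transcripts once each) over 15987 barcodes, and the KO matrix 123794575 over 12763. After limits of at least 200 genes and at most 30% mitochondrial UMIs, 13095 WT and 8658 KO barcodes remained, and the mitochondrial limit had removed 1898 and 4084. Cells were gated into 9 classes by the share of marker UMIs, with no member of the 9 genes among the markers, so 8864 WT and 4286 KO cells entered the comparisons. They comprised crypt base columnar (CBC-like, 486 WT and 293 KO), cycling CBC-like (788 and 138, which also passed the gate for proliferation), transit-amplifying (TAC-like, 1278 and 832), Paneth (PC-like, 3472 and 1070), goblet (GC-like, 1022 and 377), enteroendocrine (EEC-like, 134 and 48), tuft (TC-like, 62 and 37), immature enterocyte (imEC-like, 510 and 336) and mature enterocyte (mEC-like, 1112 and 1155) cells. KO cells were deeper in each class, with a median of 9212 against 6847 UMIs in CBC-like and 44397.5 against 22572 in PC-like cells. The 57 barcodes found in both matrices included 7 gated in both. Markers of non-epithelial cells summed to at most 33.1 CPM (UMIs of a gene per 1000000 UMIs) in 17 of the 18 class and group sums. The WT TC-like cells, with 102 CPM, were the exception, 31 of their 32 such UMIs being Ptprc.

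Over all genes with at least 50 UMIs in a class, the median log2 ratio of KO to WT was not 0. In the crypt it was -0.27 (CBC-like), -0.32 (cycling CBC-like) and -0.35 (TAC-like), and in enterocytes -0.31 (imEC-like) and -0.33 (mEC-like). Among secretory cells it was -0.20 (PC-like), -0.13 (GC-like), 0.13 (EEC-like) and 0.15 (TC-like). It also moved with gene length: in CBC-like cells the longest quartile of genes by exon sequence had a median of -0.69, and the shortest 0.19. The ratios below are read against these medians. Ctnnb1 itself, next to the deleted enhancer, read -0.65 (log2, -0.81 to -0.48) in CBC-like cells and -0.65 (-0.73 to -0.56) in PC-like cells, which is 0.38 and 0.45 below the median of all genes.

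Every gene of the set that was measured well was lower in KO, as were most genes tested in each class but EEC-like and TC-like. The minimum of 50 UMIs was passed in 52 of the 81 combinations of a gene and a class. All 52 ratios were below 0, and 48 had an interval below 0. The shares of all genes with a ratio or an interval below 0 were not counted. All 52 were also below the median of all genes in their class, but 25 of the 52 were below the median of the longest quartile of genes. The KO level was lower by 2-fold or more in 13 and higher by 2-fold or more in 0. In CBC-like cells 1 of the 7 genes that passed was lower by 2-fold or more, against 10.8% of all genes, and in PC-like cells 1 of 8 against 9.18%. In TAC-like cells it was 1 of 7 against 16.2%, in cycling CBC-like cells 1 of 7 against 15.9%, and in GC-like cells 1 of 6 against 12.9%. In imEC-like cells it was 3 of 6 against 17.4%, and in mEC-like cells 4 of 6 against 17.2%. In EEC-like cells it was 1 of 3 against 19.7% and in TC-like cells 0 of 2 against 10.1%. KO levels higher by 2-fold or more were seen in 0.505% (CBC-like), 0.605% (cycling CBC-like), 0.659% (TAC-like), 0.918% (imEC-like) and 3.15% (mEC-like) of all genes, and in 1.39% (PC-like), 6.45% (GC-like), 22.5% (EEC-like) and 5.43% (TC-like) of them in the secretory classes. Since KO cells were deeper, the number of UMIs per cell was lower in KO in 18 of the 52 combinations only, and 6 of these were Apc and 4 Axin2.

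**Figure D1:**
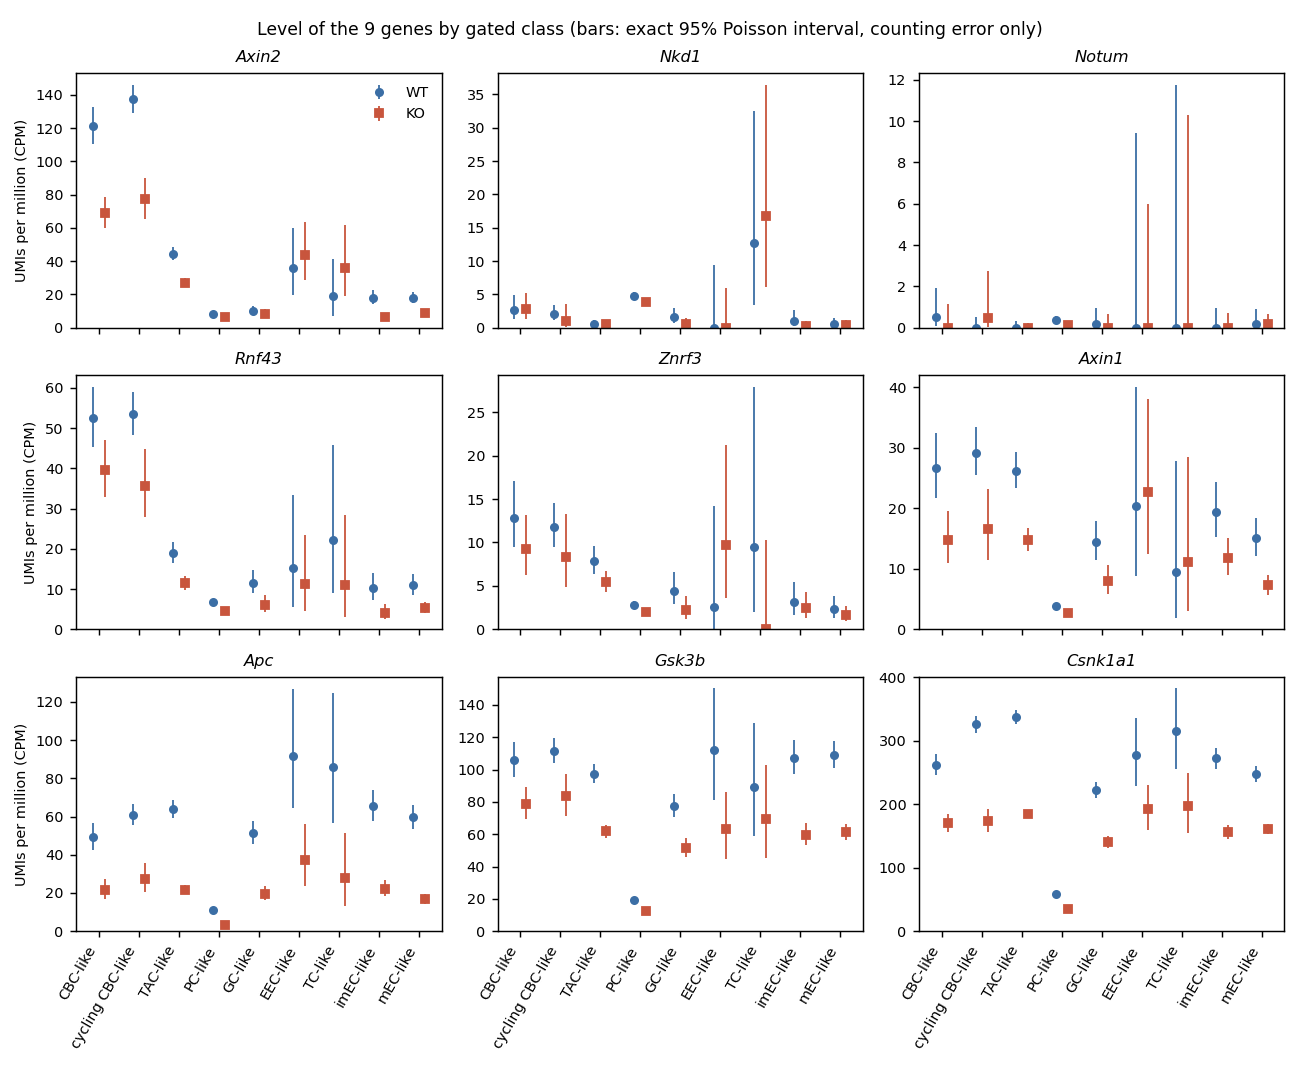
Level of each of the 9 genes (CPM, y axis, from 0 and scaled per panel) in the 9 gated classes (x axis) for WT (circles) and KO (squares), with exact 95% Poisson intervals. Axin2 and Rnf43 peaked in the 2 CBC-like classes, Apc, Gsk3b and Csnk1a1 were spread over the classes other than PC-like, and the KO values of Apc lay at 37.3 CPM or below in each class. PC-like levels are relative to a total of which abundant Paneth genes take the most.

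Axin2 had its highest levels at the crypt base. In WT it stood at 121 CPM (110 to 133) in CBC-like and 137 CPM (129 to 146) in cycling CBC-like cells, at 44.5 CPM (40.7 to 48.5) in TAC-like cells and at 18.0 CPM (14.8 to 21.8) in mEC-like cells. The KO levels were 68.8 CPM (60.03 to 78.4), 77.2 CPM (65.6 to 90.2), 26.9 CPM (24.4 to 29.6) and 8.86 CPM (7.17 to 10.8). Each KO interval lay below the WT one, and within a matrix the 2 CBC-like classes overlapped while TAC-like and mEC-like cells stood below them. As a log2 ratio, CBC-like cells had -0.82 (-1.05 to -0.58), cycling CBC-like cells -0.83 (-1.08 to -0.59) and TAC-like cells -0.72 (-0.91 to -0.54), or 0.55 below the median of all genes in CBC-like cells. Per 100 CBC-like cells there were 93.2 UMIs of Axin2 in WT and 76.1 in KO, so that the gene was lower per cell as well, although the KO cells were deeper. An Axin2 UMI was found in 55.1% (50.6% to 59.6%) of WT and 47.8% (41.9% to 53.7%) of KO CBC-like cells. After thinning each cell to 3000 UMIs, which left out 59 WT and 33 KO CBC-like cells as too shallow, the shares were 28.1% (23.9% to 32.6%) and 18.5% (13.9% to 23.7%). In mEC-like cells, a class that should lack the gene, they were 5.20% and 2.36% (8.36% and 7.36% before thinning, at medians of 5461 and 8969 UMIs).

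In enterocytes and goblet cells Axin2 did not exceed its level in shallow barcodes, where free RNA may weigh more. The level of free RNA itself was not estimated, and such barcodes may also be cells. Barcodes with under 1500 UMIs, which were not gated, held 28.1 CPM in WT and 18.1 CPM in KO. The imEC-like levels were 18.1 CPM in WT and 6.39 CPM in KO (log2 ratio -1.50, -2.14 to -0.88), and the mEC-like ratio was -1.03 (-1.44 to -0.61). Both enterocyte classes thus lay below the shallow barcodes, and the part of free RNA in these ratios was not tested. GC-like cells had 10.2 and 8.56 CPM, with an interval of the ratio that included 0 (-0.82 to 0.32). In EEC-like cells 14 WT and 27 KO UMIs gave 35.7 CPM (19.5 to 59.8) and 43.7 CPM (28.8 to 63.7), and in TC-like cells 6 and 13 UMIs gave 19.1 CPM and 36.2 CPM. These were the only classes where Axin2 was not lower in KO, both intervals of the ratio included 0, and a difference was not detectable at this depth.

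Axin2 was then followed along the share of stem cell markers, the same that set the CBC gate. They include Lgr5, which the study counts among Wnt target genes, as it does Axin2. A rise of Axin2 along this axis, or a peak in CBC-like cells, may thus be partly built in. The axis itself may also shift between the groups. Cells that passed no gate other than CBC or TAC were binned by CBC marker UMIs per 10000. A limit of 900 Paneth marker UMIs per 10000 was also set. In WT, Axin2 went from 20.1 CPM (303 cells) in the lowest bin to 169 CPM (428 cells) in the highest. In KO it went from 9.94 CPM (374 cells) to 77.8 CPM (44 cells). The log2 ratio was -1.02 (-1.59 to -0.44) in the lowest bin, under 2 marker UMIs per 10000. In the next bins, which start at 2, 5, 10 and 15, it was -0.27 (-0.62 to 0.10), -0.40 (-0.66 to -0.15), -0.39 (-0.63 to -0.16) and -0.32 (-0.61 to -0.03). Between 20 and 30 the levels were 137 and 77.6 CPM, a ratio of -0.82 (-1.08 to -0.56), and from 30 upwards 169 and 77.8 CPM, a ratio of -1.12 (-1.68 to -0.61). The ratio was thus furthest from 0 at both ends of the axis, where the intervals overlapped, and had no single trend along it. In the lowest bin both levels lay below those of the barcodes under 1500 UMIs (28.1 CPM in WT and 18.1 CPM in KO). The part of free RNA in that ratio was not tested. In the last 2 bins the WT level went on upwards, whereas the KO levels did not differ beyond their intervals. The groups differed in proliferation along this axis, since the median share of TAC markers in the highest bin was 28.2 per 10000 in WT and 7.92 in KO. In CBC-like cells the median share of CBC markers was likewise 25.9 in WT and 20.8 in KO. The part of these differences in the Axin2 ratio was not tested.

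**Figure D2:**
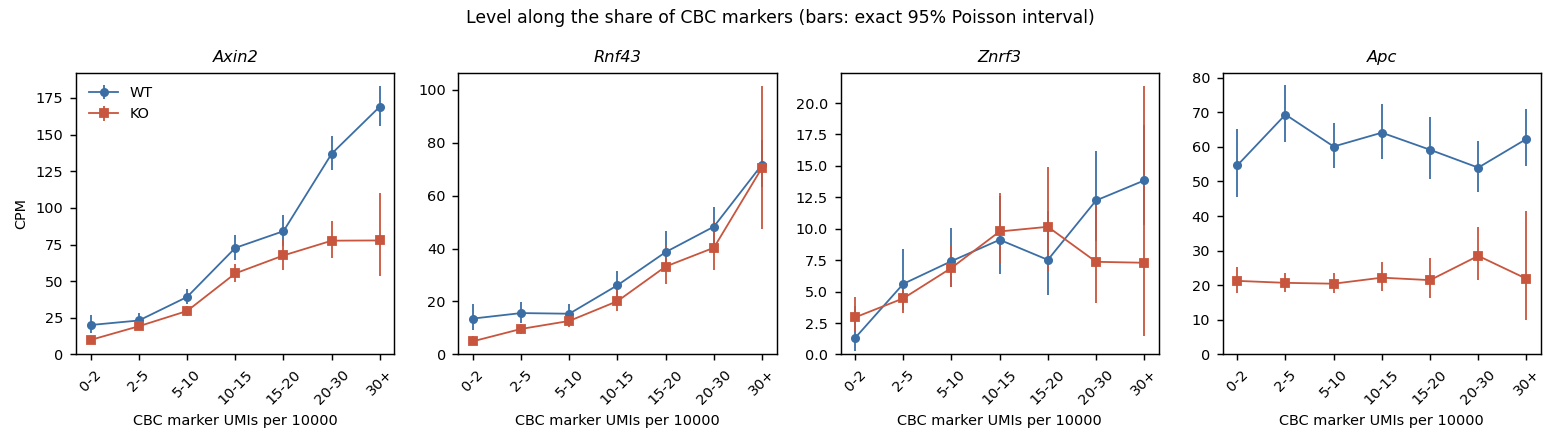
Level of Axin2, Rnf43, Znrf3 and Apc (CPM, y axis, from 0) in bins of the CBC marker share (x axis, UMIs per 10000) for WT (circles) and KO (squares), with exact 95% Poisson intervals. Axin2 reached 169 CPM in WT and 77.8 CPM in KO in the highest bin, Rnf43 71.7 and 70.5 CPM, whereas Apc was level in both matrices and lower in KO in each bin.

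Rnf43, which lowers the number of Wnt receptors on the cell, had a pattern across classes like that of Axin2. In CBC-like cells it had 52.4 CPM (45.3 to 60.3) in WT and 39.5 CPM (32.9 to 46.9) in KO (log2 ratio -0.41, -0.74 to -0.08), which is 0.14 below the median of all genes. In cycling CBC-like cells the levels were 53.5 and 35.7 CPM, and in TAC-like cells 18.9 and 11.5 CPM with a ratio of -0.72 (-1.02 to -0.44). Barcodes under 1500 UMIs held 23.6 CPM of Rnf43 in WT and 12.8 CPM in KO. TAC-like and enterocyte levels did not exceed these values, whereas CBC-like levels did. Per 100 CBC-like cells there were 40.3 UMIs in WT and 43.7 in KO, so the direction differed between the per-UMI and the per-cell scale. After thinning, 13.3% of WT and 13.8% of KO CBC-like cells had a UMI of Rnf43. In the bin from 30 marker UMIs upwards the levels were 71.7 CPM in WT and 70.5 CPM in KO, a ratio of -0.02 (-0.63 to 0.53). The interval, from 44 KO cells, still held the ratio seen in CBC-like cells and overlapped that of Axin2 in this bin.

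A ratio of the UMIs of a pair of genes in the same cells does not depend on the total. In CBC-like cells there were 2.31 UMIs of Axin2 per UMI of Rnf43 in WT and 1.74 in KO, a log2 difference of -0.41 (-0.82 to 0.003). In TAC-like cells the values were 2.35 and 2.35, and over all gated cells 1.91 and 1.84 (-0.05, -0.22 to 0.11). No interval lay below 0 in the 7 classes where both genes passed the minimum. A difference between Axin2 and Rnf43 in their ratios was thus not detectable class by class.

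Znrf3, the paralogue of Rnf43, was sparse. It had 12.8 CPM (9.46 to 17.0) in WT and 9.25 CPM (6.24 to 13.2) in KO CBC-like cells, from 48 and 30 UMIs, and the interval of the ratio included 0 (-1.18 to 0.22). In TAC-like cells it had 7.85 and 5.45 CPM (-0.53, -0.97 to -0.09), and in PC-like cells 2.82 and 1.99 CPM (-0.51, -0.88 to -0.14). All 4 classes where it passed the minimum had a ratio between -0.53 and -0.47. Per cell it was higher in KO in each of the 4. Barcodes under 1500 UMIs held 11.6 CPM of Znrf3 in WT and 3.53 CPM in KO. The WT value lay within the WT CBC-like interval and above the WT TAC-like and PC-like levels. The KO CBC-like interval lay above the KO value.

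Nkd1 had another pattern, with most of its UMIs in Paneth cells. PC-like cells held 365 of the 417 gated WT UMIs (87.5%, 84.0% to 90.5%) and 170 of the 204 KO UMIs (83.3%, 77.5% to 88.2%), while they were 39.2% and 24.97% of the gated cells and held 65.9% and 50.3% of all gated UMIs. The level was 4.82 CPM (4.33 to 5.34) in WT and 3.84 CPM (3.29 to 4.47) in KO PC-like cells, a log2 ratio of -0.33 (-0.60 to -0.06), or 0.12 below the median of all genes. The CBC-like cells had 10 and 9 UMIs (2.67 and 2.78 CPM) and the TAC-like cells 7 and 8 UMIs (0.598 and 0.507 CPM). Because 18 abundant genes take most UMIs of a Paneth cell, the levels were also computed with every gene that exceeded 1% of a class's UMIs taken out of the total. Nkd1 then stood at 20.4 CPM (18.3 to 22.6) in WT and 15.1 CPM (13.0 to 17.6) in KO PC-like cells, against 2.99 and 3.04 CPM in CBC-like cells. TC-like cells had 14.6 CPM (3.97 to 37.3) in WT and 18.3 CPM (6.71 to 39.8) in KO, intervals that included the PC-like levels. On this scale Axin2 stood at 35.6 and 25.7 CPM in PC-like cells, against 48.7 and 28.7 CPM in TAC-like cells.

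Few Nkd1 UMIs were found in the other classes. TC-like cells had 4 in WT and 6 in KO, giving 12.7 CPM (3.46 to 32.6) and 16.7 CPM (6.13 to 36.4), while EEC-like cells had 0 in each matrix, which allows up to 9.40 and 5.98 CPM. When cells that passed the tuft gate and a crypt gate were kept, a choice made after seeing the data, 11 and 15 UMIs gave 16.2 CPM (8.11 to 29.1) and 21.6 CPM (12.1 to 35.7). The barcodes under 1500 UMIs had 6.20 CPM of Nkd1 in WT and 3.53 CPM in KO, and the WT level lay within the interval of the gated WT TC-like cells.

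Notum, which disarms Wnt ligands outside the cell, was close to the detection limit. There were 34 UMIs in gated WT and 9 in gated KO cells, of which 30 and 6 were in PC-like cells (0.396 and 0.136 CPM). The log2 ratio there was -1.54 (-3.10 to -0.26), but the gene did not reach 50 UMIs and is not counted above. TAC-like, EEC-like, TC-like and imEC-like cells had 0 UMIs in both matrices.

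Among the destruction complex genes, Apc had the lowest ratios. Apc, the scaffold whose loss starts intestinal tumours, was lower by 2-fold or more in all 8 classes where it passed the minimum, which makes 8 of the 13 such values over the 9 genes. In CBC-like cells it had 49.2 CPM (42.3 to 56.8) in WT and 21.6 CPM (16.8 to 27.3) in KO, with -1.19 (-1.61 to -0.78) as log2 ratio. In TAC-like cells it had 63.9 and 21.6 CPM (-1.56, -1.75 to -1.38), in PC-like cells 11.0 and 3.50 CPM (-1.65, -1.90 to -1.40) and in mEC-like cells 59.7 and 16.7 CPM (-1.84, -2.11 to -1.58). The WT and KO intervals were apart in each of these classes. The ratio stood between the 1.39th and the 13.7th percentile of all genes, by class. Per cell Apc was lower in KO in 6 of the 8 classes, with 37.9 and 23.9 UMIs per 100 CBC-like cells, despite the greater KO depth. Barcodes under 1500 UMIs held 43.0 CPM of Apc in WT and 21.6 CPM in KO. Their log2 ratio was -0.99 (-1.51 to -0.49). In WT the CBC-like interval included the shallow level, TAC-like and mEC-like cells lay above it, and PC-like cells below. In KO no interval of these classes lay above the shallow level, although that of EEC-like cells did (23.6 to 55.9). The part of free RNA in the Apc ratios was not tested.

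Apc was lower in KO also relative to Gsk3b in the same cells. The UMIs of Apc per UMI of Gsk3b went from 0.465 to 0.273 in CBC-like cells (log2 difference -0.76, -1.24 to -0.29) and from 0.566 to 0.284 in PC-like cells (-0.99, -1.29 to -0.70). The difference was below 0 in all 8 classes and its interval in 7 of them. Against Csnk1a1 the interval was below 0 in 6 of 8 classes, and against Axin1 in 4 of 7. Apc (chr18:34220924-34322552) has the longest exon sequence of the 9 genes, 16116 bases. Among the longest quartile of genes, which had a median of -0.69 in CBC-like cells and -0.59 in PC-like cells, Apc was at the 12.5th and the 2.09th percentile. Gsk3b was at the 72.1st and the 44.9th, and Csnk1a1 at the 55.6th and the 37.4th. The part of length in its ratio was not tested. Along the CBC marker axis Apc was level, between 54.0 and 69.3 CPM in WT and between 20.5 and 28.5 CPM in KO.

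**Figure D3:**
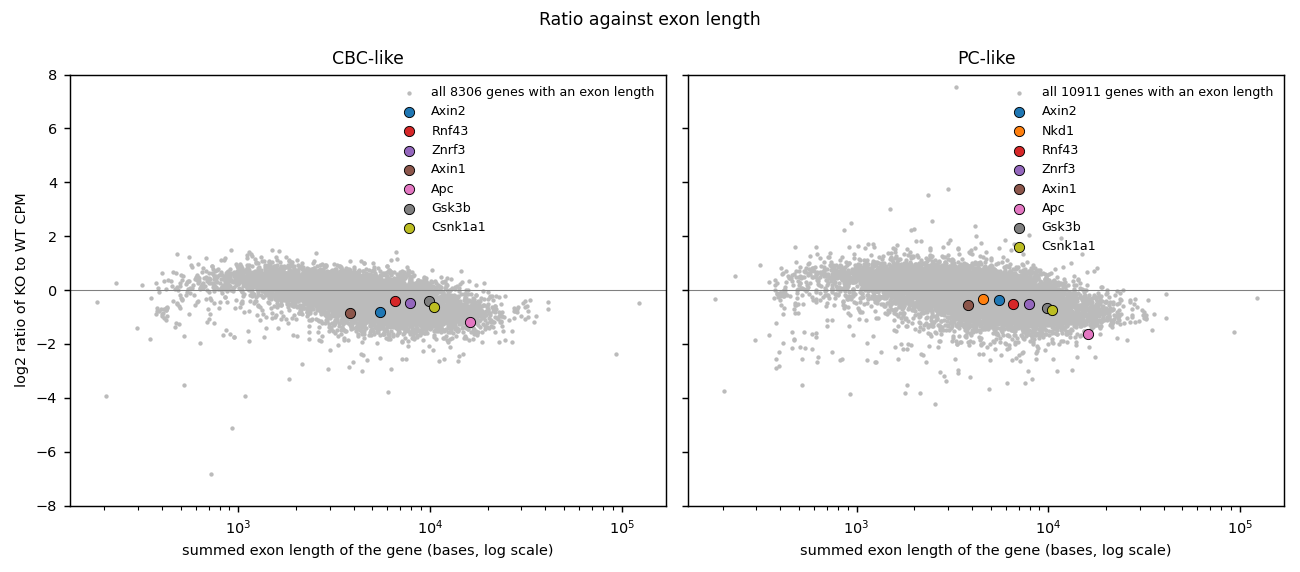
Log2 ratio of KO to WT CPM (y axis) against summed exon length (x axis, bases, log scale) in CBC-like and PC-like cells, with all genes that passed the minimum and have an exon length in grey and the members in colour. Longer genes had lower ratios, and Apc, at 16116 bases, had -1.19 in CBC-like and -1.65 in PC-like cells.

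Axin1, the constitutive counterpart of Axin2, had 26.7 CPM (21.7 to 32.5) in WT and 14.8 CPM (10.9 to 19.6) in KO CBC-like cells, with -0.85 (-1.38 to -0.34) as log2 ratio. In TAC-like cells it had 26.2 and 14.8 CPM, and in mEC-like cells 15.1 and 7.27 CPM, the only class past 2-fold (-1.05, -1.50 to -0.60). The barcodes under 1500 UMIs held 11.6 CPM of Axin1 in WT and 8.37 CPM in KO, so that the KO mEC-like level was not above them. UMIs of Axin2 per UMI of Axin1 were 4.53 and 4.65 in CBC-like cells, and the interval of the log2 difference (0.04, -0.53 to 0.62) left room for a change in either direction.

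The kinases had ratios nearer to 0 than Apc in each class where Apc passed the minimum. They were not always nearer than Axin1. In PC-like cells Gsk3b had -0.65 and Csnk1a1 -0.74 against -0.57 for Axin1, with overlapping intervals. Gsk3b had 105.9 CPM (95.7 to 117) in WT and 78.9 CPM (69.6 to 89.2) in KO CBC-like cells (log2 ratio -0.42, -0.66 to -0.19). Its ratio over the 9 classes ran from -0.85 to -0.35, never past 2-fold. Csnk1a1 (chr18:61555274-61590061) had 262 CPM (246 to 279) and 170.2 CPM (156 to 185), a ratio of -0.62 (-0.78 to -0.47), and over the 9 classes ran from -0.91 to -0.53. Both genes had near-even levels in the classes other than PC-like, where abundant genes take most UMIs. With genes above 1% taken out of the total, WT PC-like cells had 82.2 CPM of Gsk3b and 250 CPM of Csnk1a1. WT CBC-like cells had 118 and 293 CPM on that scale. Per cell, Gsk3b was lower in KO in 1 of 9 classes and Csnk1a1 in 2 of 9.

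**Figure D4:**
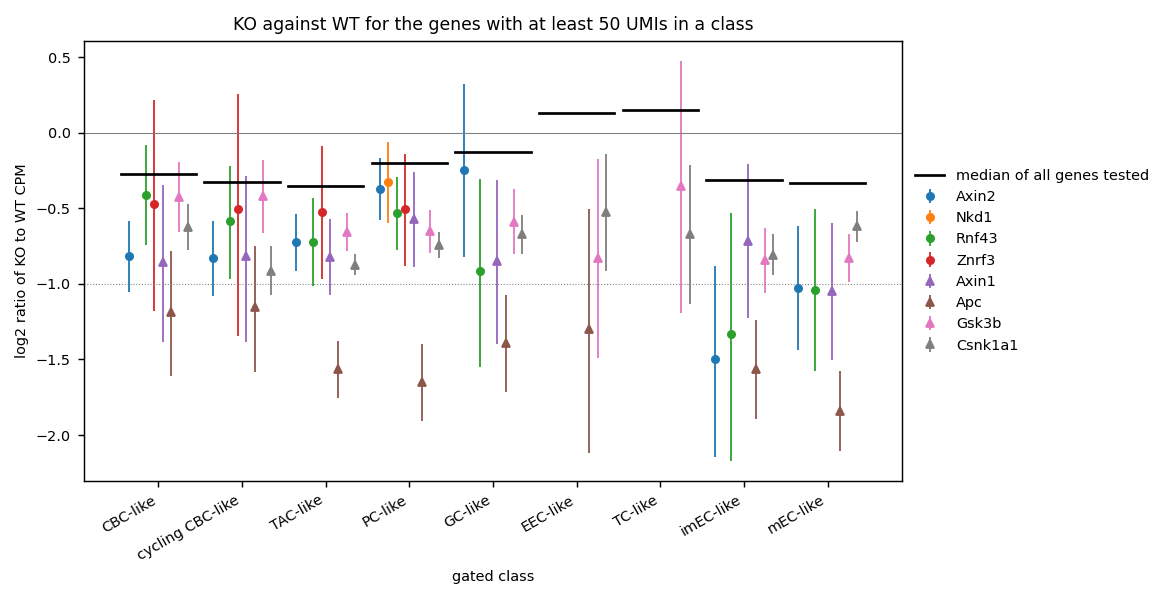
Log2 ratio of KO to WT CPM (y axis) for the genes with at least 50 UMIs in a class, by gated class (x axis), with exact 95% intervals, circles for feedback and triangles for destruction complex genes. Black lines are the median of all genes in the class and the dotted line is 2-fold lower in KO. All 52 points lie below the black lines, and Apc is the lowest point in each of the 8 classes where it is shown.

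The sums of the 5 feedback genes and of the 4 destruction complex genes were both lower in KO, with intervals of the ratio that overlapped in CBC-like and were apart in PC-like cells. In WT CBC-like cells Axin2 gave 453 of the 709 feedback UMIs and Csnk1a1 980 of the 1660 destruction complex UMIs. The sums thus follow these genes most. In CBC-like cells the feedback sum was 190 CPM (176 to 204) in WT and 120.3 CPM (109 to 133) in KO (log2 ratio -0.66, -0.84 to -0.48), and the destruction complex sum was 444 and 286 CPM, a ratio of -0.64 (-0.75 to -0.52). In cycling CBC-like cells the ratios were -0.74 (-0.94 to -0.54) and -0.81 (-0.94 to -0.69), in TAC-like cells -0.70 (-0.84 to -0.55) and -0.89 (-0.95 to -0.84), and in mEC-like cells -0.95 (-1.25 to -0.65) and -0.81 (-0.89 to -0.73). In PC-like cells they were -0.44 (-0.56 to -0.31) and -0.80 (-0.86 to -0.73). The feedback ratio in PC-like cells was -0.08 when cells were thinned to 3000 UMIs.

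Across the 9 classes in both matrices (18 profiles, which share 2 libraries and their depths), Axin2 and Rnf43 had a Pearson correlation of log2(CPM + 10) of 0.92, and Csnk1a1 and Gsk3b of 0.96. For Nkd1 and Axin2 it was 0.01. The genes most like Axin2 among 9799 were Zbtb38 (0.96), Brca2 (0.95) and Fam60a (0.94). Those most like Rnf43 were Lrig1, an inhibitor of growth factor receptors that marks stem cells (0.95), the gate marker Olfm4 (0.95) and Etv6 (0.94). Znrf3 was most like Jade2 (0.95), Pitrm1 (0.94) and Gcfc2 (0.92). Nkd1 was most like Agt (0.91), the tuft gate marker Rgs13 (0.91) and Tspan6 (0.91). Notum was most like Wfdc18 (0.79), Scgb2b7 (0.75) and Tspan4 (0.62), although it did not pass the minimum itself.

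A list of 36 other Wnt genes was read in the same way. In CBC-like cells 23 passed the minimum, 4 were lower (against 10.8% of all genes) and 1 higher (0.505%) by 2-fold or more, and their median was -0.33 against -0.27 over all genes. In TAC-like cells it was 7 lower (16.2% of all genes) and 1 higher (0.659%) of 27, with a median of -0.50 against -0.35, and in PC-like cells 6 lower (9.18% of all genes) and 1 higher (1.39%) of 29, with -0.42 against -0.20. Tnks, an enzyme that marks Axin for degradation, went from 17.4 to 3.39 CPM in CBC-like cells (-2.36, -3.43 to -1.42) and was lower also in TAC-like (-2.44) and PC-like (-1.65) cells. Its paralogue Tnks2 had -1.16 (CBC-like) and -1.39 (TAC-like). The Frizzled receptor gene Fzd5 had -1.56 (CBC-like) and -1.44 (TAC-like), and the coreceptor gene Lrp5 -1.36 (TAC-like) and -1.15 (PC-like). Amer1, which brings Apc to the membrane, had -1.25 in TAC-like and -1.26 in PC-like cells, and Dvl3, which encodes a Dishevelled protein, -1.03 and -1.50. The others past 2-fold downwards were Fbxw11 in CBC-like cells (-1.005), Kremen1 in TAC-like cells (-1.74), and the secreted inhibitors Dkk3 (-1.34) and Wif1 (-1.63) in PC-like cells. Sfrp5, a secreted inhibitor that binds Wnt ligands, went the other way, from 15.8 to 32.4 CPM in CBC-like cells (1.04, 0.56 to 1.52), with 1.26 in TAC-like and 1.43 in PC-like cells.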

How the data were processed

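The authors sorted EpCAM+ crypt cells, made 10x Genomics 3-prime libraries (a v2 kit per the labels, v2 or v3 chips per the methods) and deposited raw UMI counts per gene and barcode, 1 matrix per genotype. Cell Ranger is version 4.0.0 per the file headers and 2.1.1, with mm10, in the submitters' processing notes. Neither matrix says which animal a cell came from, and the study's legends differ on how many were pooled. The study removed doublets with a caller whose output was not used here. No caller was run, and cells passing more than 1 class gate (714 WT, 268 KO) were left out, other than the cycling CBC-like cells.

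Barcodes with at least 200 genes, at most 30% mitochondrial UMIs and at least 1500 UMIs were gated by the summed share of each class's markers, per 10000 UMIs: 3000 (PC), 700 (GC), 80 (EEC), 10 (TC), 200 (mEC), 15 (imEC), 20 (TAC) and 15 (CBC), with 3 or more marker UMIs from 2 or more markers. The gate values were set after seeing the data. A further 1010 WT and 1327 KO cells passed no gate, and 2507 and 2777 were too shallow. UMIs were summed over cells and divided by all UMIs of the class (CPM). Levels have exact Poisson intervals, ratios exact conditional binomial, shares of cells Clopper-Pearson, and ratios of gene pairs exact conditional odds ratio intervals, from scipy 1.17.1 (numpy 2.4.6, pandas 2.3.3, python 3.11.15). The ratio step was tested on simulated counts. UMIs come from pooled animals, so the spread between animals is not known. Genes needed 50 UMIs over both matrices in a class. Of the gene IDs, 27645 were found in GENCODE M21.

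The members and lists were chosen with earlier results of these data known. All 9 members are named. Other Wnt genes are named where their ratio passed 2-fold in CBC-like, TAC-like or PC-like cells, and for each feedback gene the 3 genes most like it.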

Additional observations from a re-analysis of the deposited data

How the results depend on the processing

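No paired analysis was possible because each group is 1 matrix whose barcodes carry no sample number. The sums of the feedback and of the destruction complex genes in CBC-like, cycling CBC-like, TAC-like, PC-like and mEC-like cells (10 ratios) were recomputed under 9 alternatives, 1 of them (secretory cells that also pass a crypt gate kept) chosen after seeing the data. All 90 values stayed below 0 and 83 stayed within the 95% interval of the reported ratio. The others were, for stricter gates, the feedback sum in cycling CBC-like cells (-1.05) and the destruction complex sum in PC-like cells (-0.89). With genes above 1% out of the denominator the latter was -0.90, with the mean over cells of each cell's CPM -0.60, and with cells thinned to 3000 UMIs -0.64. Thinning also gave the feedback sum as -0.92 in CBC-like and -0.081 in PC-like cells. The cause was not tested. Of the 468 values for single genes, 463 were below 0. The exceptions were Axin2 in GC-like cells with gates from other markers (0.08) and, after thinning, Rnf43 in PC-like (0.49), Znrf3 in cycling CBC-like (0.20), Csnk1a1 in EEC-like (0.21) and Gsk3b in TC-like cells (1.15). Apc was lower by 2-fold or more in 69 of 72 values (-1.92 to -0.77), Axin2 in enterocyte classes in 17 of 18, Rnf43 there in 15 of 18 and Axin1 in mEC-like cells in 5 of 9. Depth limits Notum, Znrf3 and the EEC-like and TC-like classes. Leaving out an animal could not be tried.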
